A study of Mus musculus with 6 samples.

Results

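The comparison described here set mouse embryonic stem cells (mESCs) kept with 10 ng/mL oncostatin M (OSM-ESCs) against the same mESCs kept with neither OSM nor leukemia inhibitory factor (-LIF-ESCs). It used 4 of the 6 RNA-seq libraries of the study, 2 per group, grouped by their labels. The other 2 libraries came from LIF-ESCs (1000 U/mL LIF); they entered the filter and the fit, are quoted beside a few values, and are set against OSM-ESCs for the trends with exon length and GC content and in the closing section. The mESCs derived from C57BL/6 × 129S6 blastocysts, carry no engineered allele that the labels name, and grew for 5 passages on mouse embryonic fibroblasts (MEFs) arrested with mitomycin C before they were moved to serum-containing basal medium with OSM, with LIF or with no cytokine. RNA was taken 10 passages after that move (P10). The study calls the samples biological replicates, but the sources used here do not say whether they were separate cultures or separate lines, so the p-values measure only the spread between these samples. The sources also do not say whether MEFs were still present in the tested media.

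OSM and LIF belong to the interleukin 6 family of cytokines. Both bind receptor pairs that contain gp130 (gene Il6st). LIF uses gp130 with the LIF receptor (Lifr), and OSM uses gp130 with Lifr or with the OSM receptor (Osmr). The bound receptors switch on Jak kinases, which phosphorylate the transcription factor Stat3. In mESCs, Stat3 is known to maintain transcription factors of the naive state, such as Klf4, Tfcp2l1 and Gbx2. When the signal is withdrawn, mESCs pass through formative and primed epiblast-like states and can go on to the germ layers.

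Levels are given as TPM, a scale of transcript abundance that corrects reads for gene length and then sets all libraries to 1 total. Fold changes are differences of log2(TPM + 1), OSM minus -LIF, which understates the change of genes at low levels. A gene was tested when 2 or more libraries held it at 1 TPM or above, and called when its adjusted p was under 0.05 (limma, Benjamini-Hochberg) and its log2 fold change was 1 or more, up or down. Of 18556 tested genes, 2630 (14.2%) were called higher in OSM-ESCs and 1459 (7.86%) lower. The -LIF and OSM libraries of all 4089 called genes did not overlap, but the thresholds of a call make overlap unlikely, so this adds no support. The median gene was 0.18 higher in OSM-ESCs, between 0.16 and 0.20 in the 4 pairings of libraries (SD 0.021). Each library enters 2 of these pairings, so they are not independent and their SD only describes them. Dividing each library by its median ratio to the others removed most of this shift (median 0.020) and gave 2063 genes (11.1%) higher and 1895 (10.2%) lower. Higher genes thus made up 64.3% of calls on the TPM scale and 52.1% after rescaling. Each gene list is described by its members called in each direction, to be read against 14.2% and 7.86%, and by its median, to be read against 0.18. The lists were not tested as sets. A member under 1 TPM in one group could be tested only through libraries where it was higher, so for the lists where this was common the number of such members is given and the count is a description. An exact permutation test of any single value, 2 libraries against 2, cannot go below p = 0.333 (two-sided). Libraries that do not overlap are therefore not evidence of a difference by themselves, and statements below that they lie apart only describe the values.

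**Figure D1:**
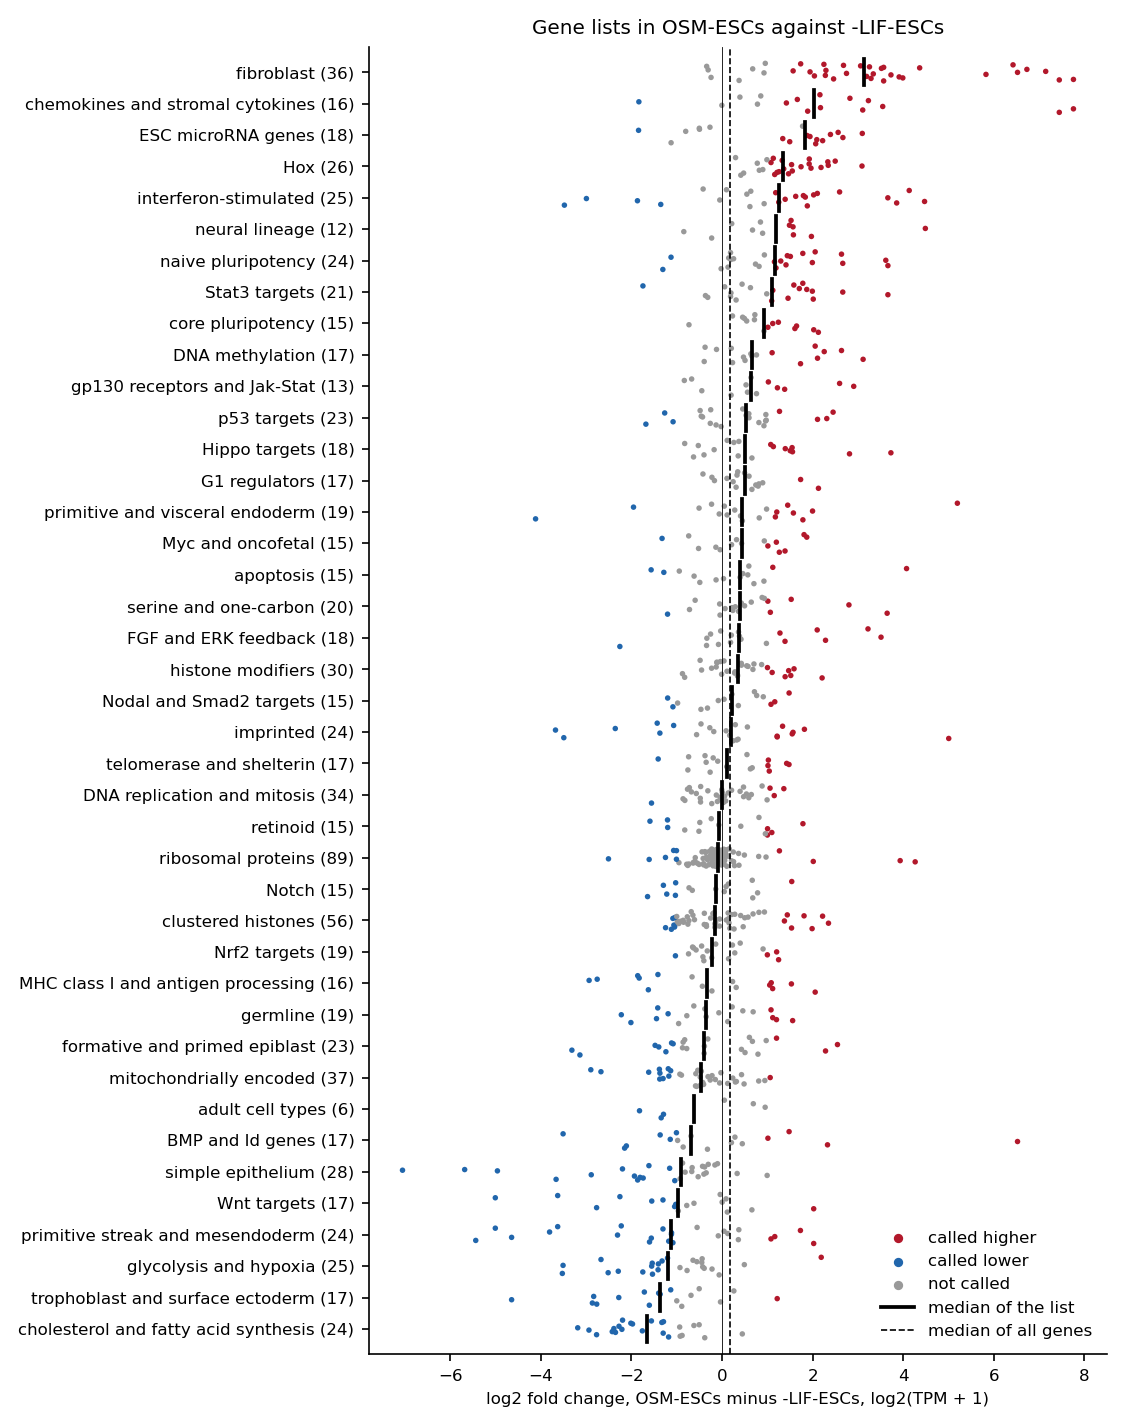
Log2 fold change of each tested member of 41 gene lists (points; x axis, log2(TPM + 1), OSM-ESCs minus -LIF-ESCs), with the number tested after each name on the y axis, the list's median as a bar and the median of all genes (0.18) as a dashed line. Medians ran from -1.66 for cholesterol and fatty acid synthesis to 3.13 for fibroblast genes.

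Reads recovered from the TPM values came to 22634094 and 18773811 without cytokine and 22414975 and 26031901 with OSM. The 100 most abundant genes held 37.6% and 37.5% of TPM without cytokine and 32.7% and 34.2% with OSM. Of 7 markers of embryonic stem cells (Pou5f1, Sox2, Nanog, Zfp42, Esrrb, Dppa5a and Fbxo15), all were above 1 TPM in both groups. Their sum was 4820 to 4821 TPM in -LIF-ESCs and 5584 to 5598 TPM in OSM-ESCs, and 2 of the 7 were called higher and 0 lower. Dppa5a held the largest part of each sum, at 2949 and 2935 TPM without cytokine and 2882 and 2919 TPM with OSM. The 12 fibroblast markers fixed for MEFs summed to 48.4 to 52.4 TPM in -LIF-ESCs and 531 to 539 TPM in OSM-ESCs, and 11 of the 12 were called higher. None of the 12 was at 0 in both libraries of a group, and 6 were under 1 TPM in -LIF-ESCs. The part of MEFs in any difference was not tested, and in bulk RNA fewer cells of a type and less RNA per cell cannot be told apart.

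The receptor and its Jak-Stat components formed the first list. Of these, 5 of 13 tested members (14 listed) were called higher and 0 lower, with a median log2 fold change of 0.64. Osmr, chr15:6813577-6874969 of GRCm38, was nearly silent in -LIF-ESCs, at 0.131 and 0.151 TPM without cytokine and 7.82 and 7.30 TPM with OSM, a 53.6-fold difference of means (log2 fold change 2.91 ± 0.09, SE; adjusted p = 1.14e-05 by limma). Lifr stood at 5.23 and 5.44 against 14.5 and 13.1 TPM (1.22 ± 0.08) and Il6st at 16.1 and 16.6 against 28.7 and 28.2 TPM, short of the threshold for a call (0.76 ± 0.05). Each OSM library thus lay above both -LIF libraries for all 3 receptor subunits. Osmr is also expressed by fibroblasts, whose markers were higher in the same OSM libraries, and their part in the Osmr value was not tested. Stat3 itself was at 22.4 and 20.4 against 44.9 and 44.1 TPM, a log2 fold change of 1.02 ± 0.06 that went to 0.84 after rescaling and 0.96 without -LIF replicate 2, both under the threshold. Lif, the gene of the other cytokine, was at 7.65 and 7.07 TPM without cytokine and 20.4 and 21.1 TPM with OSM (1.38 ± 0.06).

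Many genes known as Stat3 targets were higher with OSM: 11 of 21 tested members were called higher and 1 lower, with a median log2 fold change of 1.10. Klf4, a Krüppel-like factor of the naive state (chr4:55527143-55532466), was at 51.2 and 49.7 TPM without cytokine and 325 and 326 TPM with OSM, 6.45-fold higher (2.67 ± 0.03; adjusted p = 1.35e-06 by limma). Gbx2, a homeobox factor, was at 4.06 and 2.86 TPM without cytokine and 54.8 and 55.03 TPM with OSM (3.66 ± 0.13). Both pairs were far apart relative to the difference between replicates. Tfcp2l1 was at 29.97 and 29.4 against 109 and 100.0 TPM (1.78 ± 0.05). Myc was at 10.6 and 9.61 against 39.8 and 39.4 TPM (1.87 ± 0.07). Cebpb, a leucine zipper factor of the acute-phase response, was at 14.1 and 17.6 against 59.1 and 75.4 TPM (2.01 ± 0.21). Socs3, the feedback inhibitor of gp130 signalling, differed little, with 37.2 and 39.3 TPM without cytokine and 54.1 and 50.6 TPM with OSM (0.44 ± 0.05, not called), although its libraries did not overlap. The 1 target called lower was Socs1, an inhibitor of Jak kinases that was named after its values were seen, at 12.7 and 12.3 against 2.89 and 3.15 TPM (-1.75 ± 0.08).

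Among core pluripotency factors, 7 of 15 tested members were called higher and 0 lower, with a median log2 fold change of 0.93. Pou5f1 (Oct4) was at 539.7 and 551 TPM without cytokine and 1181 and 1190.3 TPM with OSM (1.12 ± 0.03), a call that ended after rescaling (0.93). Sox2 was at 338 and 341 against 500.3 and 490.1 TPM and was not called (0.54 ± 0.06). Nanog went the other way: 436 and 431 TPM without cytokine and 270.4 and 252 TPM with OSM, lower with OSM in both libraries but short of a call on the TPM scale (-0.73 ± 0.04; -0.92 after rescaling). In its account of the RNA-seq, the study instead names Nanog among pluripotency genes with raised expression under either cytokine. Its immunofluorescence and western blots had less Nanog protein without cytokine. Both are opposite in direction to the Nanog values here, and the reason was not tested. Mybl2, a Myb-family factor of proliferating cells, was at 156 and 154 against 481 and 493 TPM (1.65 ± 0.03). Dppa2, a chromatin factor of early development, was at 29.2 and 30.7 against 142 and 126 TPM (2.13 ± 0.07). Foxd3, a forkhead factor, was at 4.52 and 5.23 against 23.9 and 21.9 TPM (2.02 ± 0.09). Lin28a, an RNA-binding protein that blocks let-7 maturation, was at 168 and 175 against 352 and 343 TPM (1.01 ± 0.03), and its call ended after rescaling (0.83) and without OSM replicate 1 (0.99) or -LIF replicate 1 (0.98).

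Of the naive factors, 13 of 24 tested members were called higher and 2 lower, with a median log2 fold change of 1.17, and rescaling left 12 higher and 2 lower. Nr0b1 (Dax1), an orphan nuclear receptor that binds Oct4, was at 20.1 and 20.3 TPM without cytokine and 255 and 263 TPM with OSM, 12.8-fold higher (3.62 ± 0.03; adjusted p = 9.19e-07 by limma). Esrrb, an orphan nuclear receptor, was at 98.1 and 95.1 against 223 and 220.2 TPM (1.19 ± 0.04). Tbx3, a T-box factor, was at 11.3 and 11.4 against 35.3 and 33.2 TPM (1.51 ± 0.05). Tet2, an enzyme that oxidises methylated cytosine, was at 1.74 and 2.01 against 17.7 and 16.1 TPM (2.64 ± 0.09). Zfp42 (Rex1), a zinc finger protein widely used as a naive reporter, was close in the groups, with 406 and 413 TPM without cytokine and 479 and 453 TPM with OSM (0.19 ± 0.04, not called; 0.00111 after rescaling). The 2 naive genes called lower, named after their values were seen, were Dppa3 (Stella), at 101 and 108 against 44.1 and 39.2 TPM (-1.31 ± 0.08), and Spic, an Ets-family factor, at 1.08 and 1.40 against 0.0258 and 0.0215 TPM (-1.13 ± 0.17). Naive and core factors therefore did not move as a block: Klf4, Nr0b1 and Gbx2 were called higher, Nanog and Zfp42 were not called, and Dppa3 was called lower.

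**Figure D2:**
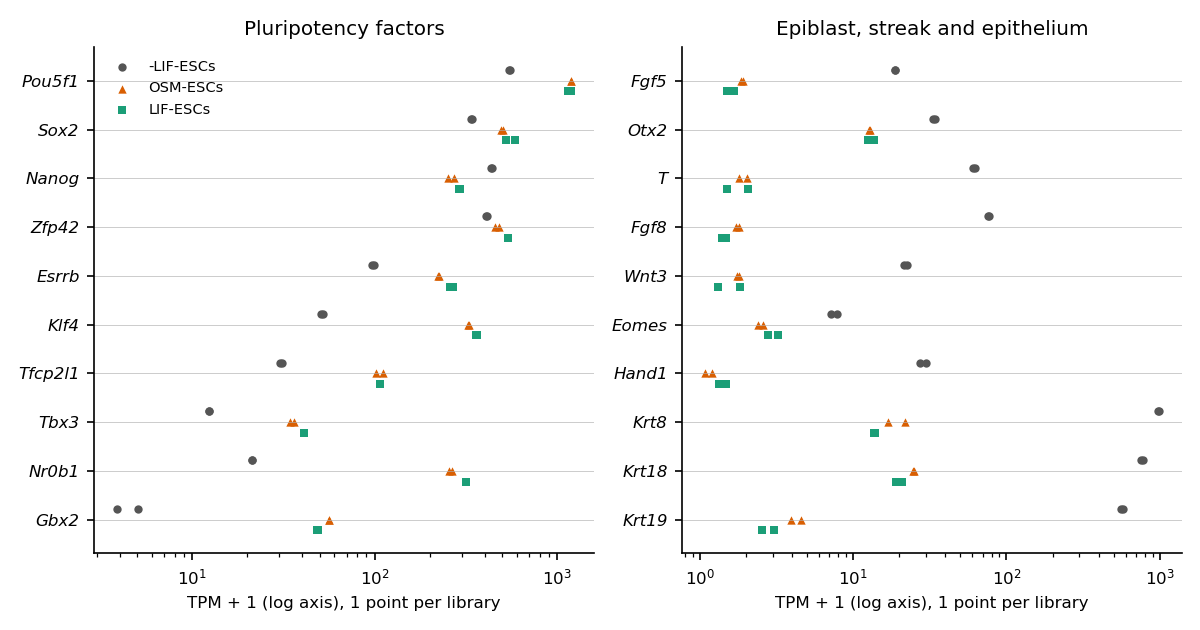
Level of 10 pluripotency genes (left) and 10 genes of the epiblast, primitive streak and simple epithelium (right) in each library, as TPM + 1 on a log axis; each point is 1 library, with the 3 groups in separate colours. Nanog and the 10 genes on the right were lower in OSM-ESCs, and the other 9 genes on the left were higher.

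The microRNA genes of the miR-290 to miR-295 cluster were also higher in OSM-ESCs. This cluster on chromosome 7 makes the most abundant microRNAs of mESCs, which share a seed, the bases that pair with target mRNAs, with the miR-302 family on chromosome 3 of later epiblast. The mature sequences (RefSeq, GRCm38.p6) are shown for members of both clusters with bases 2 to 8, the seed, in capitals.
miR-291a-3p: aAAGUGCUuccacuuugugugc
miR-294-3p: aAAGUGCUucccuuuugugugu
miR-295-3p: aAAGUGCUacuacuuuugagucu
miR-302b-3p: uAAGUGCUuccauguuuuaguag
miR-302d-3p: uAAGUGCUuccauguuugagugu
miR-290a-3p: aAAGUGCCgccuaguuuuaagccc
miR-291b-3p: aAAGUGCAuccauuuuguuugu
The first 5 share the seed AAGUGCU, while miR-290a-3p and miR-291b-3p carry other seeds. Libraries were made from poly(A) RNA, so these values count fragments of the primary transcript over the hairpin model, not mature microRNA. Of the microRNA genes, 11 of 18 tested members (21 listed) were called higher and 1 lower, with a median log2 fold change of 1.83. Hairpins of 1 cluster count pieces of the same primary transcript, so these calls are not those of separate genes. Mir294 was at 15.8 and 12.8 TPM without cytokine and 118 and 141 TPM with OSM, which rested on 15 and 10 reads against 100 and 144 (3.10 ± 0.14). Mir295 was at 33.3 and 34.3 against 192 and 217 TPM (2.56 ± 0.07). Mir291b was at 25.7 and 43.5 against 229 and 208 TPM (2.67 ± 0.29). Mir291a, named for its seed after its values were seen, was at 25.9 and 22.3 against 60.4 and 64.3 TPM (1.34 ± 0.08). OSM libraries were above -LIF libraries at each of these 4 hairpins. Mir290a and the antisense Mir290b overlap on the genome, as do Mir292 and the antisense Mir292b. Reads of such a pair cannot be told apart without strand, so each pair may count the same reads under both names. Mir290a was at 7.45 and 16.8 against 54.9 and 57.6 TPM (2.22 ± 0.33). The 1 member called lower was Mir302b, at 5.97 and 2.90 against 0 and 1.11 TPM, on 5 and 2 reads against 0 and 1, and its call ended without -LIF replicate 1 (-1.43).

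Markers of the formative and primed epiblast were split. Of these, 3 of 23 tested members were called higher and 7 lower, with a median log2 fold change of -0.39, or 3 higher and 9 lower after rescaling. Fgf5, a growth factor used as the classic marker of primed epiblast, was at 17.7 and 17.7 TPM without cytokine and 0.910 and 0.857 TPM with OSM, 20.1-fold lower (-3.31 ± 0.10; adjusted p = 1.02e-05 by limma). Otx2, a homeobox factor of the formative state, was at 32.02 and 33.02 against 11.8 and 11.6 TPM (-1.40 ± 0.06). Car4, a carbonic anhydrase, was at 60.02 and 55.9 against 6.09 and 5.33 TPM (-3.14 ± 0.08). Pou3f1 (Oct6), at 35.3 and 37.4 against 27.7 and 27.3 TPM, and the DNA methyltransferase Dnmt3b, at 88.5 and 88.7 against 126 and 127 TPM, were not called (-0.39 and 0.51). Sall3, a zinc finger protein, moved against the list's name, at 0.924 and 0.936 against 10.5 and 10.05 TPM (2.55 ± 0.08), as did Etv4, described with the FGF genes.

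Genes of the primitive streak were mostly lower in OSM-ESCs. The streak is the site where epiblast cells form mesoderm and endoderm. Here 4 of 24 tested members (28 listed) were called higher and 14 lower, with a median log2 fold change of -1.12. Of the 24, 11 were under 1 TPM in both OSM libraries, and 10 of these were called lower. T (Brachyury), the defining T-box factor of the streak (chr17:8434423-8442496), was at 61.9 and 59.4 TPM without cytokine and 0.812 and 1.03 TPM with OSM, 65.7-fold lower (-5.01 ± 0.16; adjusted p = 1.25e-05 by limma). Fgf8, a streak growth factor, was at 75.04 and 76.3 TPM without cytokine and 0.807 and 0.733 TPM with OSM (-5.44 ± 0.08). Hand1, a basic helix-loop-helix factor of extraembryonic mesoderm and trophoblast, was at 26.3 and 28.8 TPM without cytokine and 0.198 and 0.0826 TPM with OSM (-4.65 ± 0.12). All 3 were near or below 1 TPM in OSM-ESCs. Wnt3, the ligand that starts the streak, was at 21.4 and 20.4 against 0.740 and 0.804 TPM (-3.63 ± 0.17). Eomes, a T-box factor of mesendoderm, was at 6.84 and 6.21 against 1.57 and 1.39 TPM (-1.60 ± 0.12). Mixl1, a homeobox factor of the same cells, was at 2.43 and 2.39 against 0.647 and 0.503 TPM (-1.11 ± 0.14). Msgn1, a factor of presomitic mesoderm named after its values were seen, was at 12.7 and 13.3 TPM without cytokine and had no read with OSM, at least 63.96-fold lower against a limit of 3 reads over both OSM libraries. The 4 streak members called higher were Lefty1 (1.16), Cdx1 (2.02), Gdf3 (1.08) and Pdgfra (1.73), of which Lefty1 and Gdf3, both TGF-β family ligands, lost their calls after rescaling. Gdf3 and Pdgfra, a receptor also carried by fibroblasts, were named after their values were seen. A filter of 5 TPM left 8 of the 14 members lower.

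Signalling genes of the same stage did not share 1 direction. Of Wnt targets, 1 of 17 tested members (18 listed) was called higher and 8 lower, with a median log2 fold change of -0.96. Of the 17, 3 were under 1 TPM in both OSM libraries, and all 3 were called lower. Tcf7, a transcription factor of the pathway named after its values were seen, was at 142 and 144 TPM without cytokine and 29.7 and 28.6 TPM with OSM (-2.25 ± 0.07). Dkk1, a secreted Wnt inhibitor, was at 6.04 and 6.91 against 0.122 and 0.0679 TPM (-2.77 ± 0.15). Sp5, a direct target, was at 29.8 and 24.5 against 11.3 and 9.501 TPM (-1.30 ± 0.13). Lef1, a transcription factor of the pathway, was at 6.0002 and 5.97 against 3.19 and 2.96 TPM and was not called (-0.78). The feedback gene Axin2 was at 15.3 and 15.7 against 7.78 and 7.13 TPM, not called on the TPM scale (-0.96 ± 0.07) and called after rescaling (-1.14). The 1 Wnt target called higher, Cdx1, a homeobox gene named after its values were seen, was at 2.47 and 2.39 against 13.01 and 12.9 TPM (2.02 ± 0.08). Of Nodal and Smad2 targets, 3 of 15 tested members were called higher and 2 lower, with a median log2 fold change of 0.22; rescaling turned the balance, to 1 higher and 3 lower. Nodal was at 68.2 and 67.6 against 71.2 and 69.03 TPM (0.04 ± 0.05). Lefty2, its inhibitor, was at 156 and 152 against 148 and 143 TPM (-0.08 ± 0.03); neither was called. Lefty1 was at 183 and 179 against 403 and 411 TPM (1.16 ± 0.03; 0.98 after rescaling, no call). Cer1, a secreted Nodal inhibitor called lower, was named after its values were seen (-1.08), at under 2 TPM in all 4 libraries. Smad7, an inhibitor of the TGF-β receptors, was at 22.2 and 19.9 against 59.8 and 60.98 TPM (1.48 ± 0.06).

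For BMP signalling, 4 of 17 tested members (18 listed) were called higher and 6 lower, with a median log2 fold change of -0.68. Of the 17, 3 were under 1 TPM in both -LIF libraries, and 2 of these, Grem1 and Bmper, were called higher. Among secreted BMP antagonists, Nog was called lower and Grem1 higher. Noggin (Nog) was at 27.7 and 31.1 TPM without cytokine and 1.64 and 1.70 TPM with OSM, 17.6-fold lower (-3.51 ± 0.22). Gremlin (Grem1) was at 0.703 and 0.907 TPM without cytokine and 172 and 158 TPM with OSM (6.52 ± 0.08), and Grem1 is also a fibroblast gene. Bmper, a BMP-binding protein, was at 0.530 and 0.245 against 5.78 and 6.09 TPM (2.33 ± 0.15). Id1, a target that blocks differentiation factors, was at 50.6 and 55.4 against 26.8 and 25.9 TPM (-0.98 ± 0.06, not called; -1.16, called after rescaling). Id3, its relative, was at 20.3 and 18.8 against 37.03 and 44.3 TPM (1.01 ± 0.09; 0.83, not called after rescaling). The ligand Bmp4 was at 23.9 and 22.4 against 12.2 and 12.4 TPM (-0.86 ± 0.07, not called on the TPM scale). In the Notch list, 1 of 15 tested members (19 listed) was called higher and 5 lower, with a median log2 fold change of -0.14. The receptor Notch3 was at 55.6 and 53.6 against 21.8 and 21.5 TPM (-1.29 ± 0.05). The ligand Dll3 was at 11.002 and 9.54 against 2.74 and 2.46 TPM (-1.64 ± 0.11). The nuclear partner Rbpj was at 29.6 and 29.1 against 89.1 and 85.3 TPM (1.54 ± 0.04). The receptor Notch1 (-0.73) and the ligand Dll1 (0.68) were not called, and Hes1, the classic target, was called lower (-1.03) but not without -LIF replicate 2 (-0.96). The other members called lower, Hey1 (-1.22) and Nrarp (-1.02), both Notch targets, were named after their values were seen, and Nrarp lost its call without OSM replicate 1 (-0.96) or -LIF replicate 1 (-0.97).

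Feedback genes of FGF and ERK signalling were more often higher than lower with OSM: 6 of 18 tested members were called higher and 1 lower, with a median log2 fold change of 0.37. Spry4, an inhibitor of receptor tyrosine kinase signalling, was at 3.504 and 3.68 TPM without cytokine and 42.4 and 41.3 TPM with OSM (3.22 ± 0.05). Spry2 was at 35.8 and 36.6 against 161 and 156 TPM (2.10 ± 0.04). Etv4, an Ets factor downstream of FGF, was at 13.9 and 13.3 against 70.7 and 69.6 TPM (2.28 ± 0.04). Fosl1, an AP-1 subunit, was at 0.983 and 1.39 against 25.1 and 22.5 TPM (3.51 ± 0.12). OSM libraries were higher in each. Dusp6, the phosphatase of ERK, was at 36.04 and 36.3 against 74.5 and 70.2 TPM and stayed just under the threshold (0.98 ± 0.04; 1.02 and called without OSM replicate 2). Dusp14, the 1 member called lower and named after its values were seen, was at 34.5 and 33.9 against 6.41 and 6.32 TPM (-2.26 ± 0.06).

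Genes of simple epithelium included the lowest fold changes. Among them 0 of 28 tested members were called higher and 13 lower, with a median log2 fold change of -0.90. Krt19, a type I keratin (chr11:100140810-100148665), was at 573 and 556 TPM without cytokine and 2.93 and 3.60 TPM with OSM, 173-fold lower (-7.05 ± 0.12; adjusted p = 2.37e-06 by limma). Krt8, a keratin of the first embryonic epithelia, was at 994 and 969.9 against 20.8 and 15.8 TPM (-5.68 ± 0.12). Its partner Krt18 was at 755 and 776 against 23.8 and 23.5 TPM (-4.96 ± 0.05). The keratins were thus among the abundant mRNAs of -LIF-ESCs and minor ones of OSM-ESCs. Alox15, a lipoxygenase outside the list and one of the 10 lowest named genes, was at 36.3 and 37.8 against 0.645 and 0.235 TPM (-4.74 ± 0.16). Cldn3, a tight junction protein named after its values were seen, was at 67.4 and 69.7 against 4.87 and 4.13 TPM (-3.66 ± 0.09). E-cadherin (Cdh1) was at 447 and 445 against 222 and 211 TPM (-1.04 ± 0.04).

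Trophoblast and surface ectoderm genes were lower as well: 1 of 17 tested members (22 listed) was called higher and 10 lower, with a median log2 fold change of -1.37. Of the 17, 6 were under 1 TPM in both OSM libraries, 6 of them called lower. Cdx2, the factor that specifies trophectoderm, was at 4.57 and 3.66 against 0.657 and 0.693 TPM (-1.61 ± 0.16). Esx1, a placental homeobox gene, was at 20.4 and 19.98 against 2.14 and 1.70 TPM (-2.86 ± 0.11). Krt7 was at 10.3 and 9.28 against 0.449 and 0.573 TPM (-2.83 ± 0.12). Gata3 was at 4.29 and 4.84 against 1.82 and 1.74 TPM, at the threshold but not called (-0.999 ± 0.13; -1.14, called after rescaling). The 1 member called higher was Igf2, an imprinted growth factor, at 48.2 and 50.8 against 119.9 and 113 TPM (1.22 ± 0.06). Of 6 genes of adult cell types that could be tested, 3 were called lower and 0 higher (median -0.62): Cd68, a lysosomal protein of macrophages, at 38.9 and 41.1 against 15.3 and 15.02 TPM, the cardiac myosin chain Myl7 at 16.9 and 9.47 against 2.68 and 3.07 TPM, and the cardiac chain Myh6 at 2.82 and 3.21 against 0.677 and 0.601 TPM. The endothelial cadherin Cdh5 stayed at 0.358 TPM or less in these 4 libraries and was not tested.

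Neural and endoderm markers were mostly at low levels, and many listed members were not tested. Of neural genes, 6 of 12 tested members (22 listed) were called higher and 0 lower, with a median log2 fold change of 1.19, though a filter of 5 TPM left 3. Of the 12, 4 were under 1 TPM in both -LIF libraries and were tested only because libraries with cytokine passed the filter, and all 4 are among the 6 called higher. Olig2, a factor of glial and motor neuron precursors, was at 0.0362 and 0.0441 TPM without cytokine and 23.7 and 21.04 TPM with OSM (4.49 ± 0.08). Pax6, an early neural factor, was at 0.506 and 0.368 against 3.66 and 2.88 TPM (1.57 ± 0.14). Sox1, another, was at 0.439 and 0.489 against 3.40 and 2.83 TPM (1.49 ± 0.12), and both stayed below 4 TPM in all 4 libraries. Ncam1, an adhesion molecule, was at 1.98 and 1.98 against 10.9 and 10.5 TPM (1.97 ± 0.08). Nefl, a neurofilament, was at 18.03 and 20.3 against 61.001 and 56.96 TPM (1.58 ± 0.07). Nestin (Nes) had the opposite sign, 31.3 and 31.9 against 17.5 and 16.8 TPM (-0.84 ± 0.05, not called; -1.02, called after rescaling). Of primitive and visceral endoderm genes, 7 of 19 tested members (25 listed) were called higher and 2 lower, with a median log2 fold change of 0.45. Of the 19, 5 were under 1 TPM in both -LIF libraries, 3 of them called higher. Thbd (thrombomodulin) was at 0.332 and 0.375 TPM without cytokine and 49.9 and 47.3 TPM with OSM (5.20 ± 0.06). Lama1, a basement membrane laminin, was at 4.55 and 3.53 against 19.3 and 18.7 TPM (1.998 ± 0.10). Gata4, a zinc finger factor of endoderm, was at 0.679 and 1.18 against 4.94 and 4.48 TPM (1.58 ± 0.15). Gata6, a factor of the same family, was at 0.719 and 0.807 against 2.98 and 3.17 TPM (1.21 ± 0.10). Sox17, a defining factor of endoderm, was under 0.5 TPM in all 4 libraries. Cited1, a transcriptional coactivator, was at 22.9 and 27.3 against 0.395 and 0.611 TPM (-4.12 ± 0.14). The other member called lower, Rhox5, an X-linked homeobox gene named after its values were seen, was at 105 and 108 against 25.99 and 27.4 TPM (-1.95 ± 0.05).

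Genes of glycolysis and the hypoxia response formed a lower group in OSM-ESCs. Of this list, 1 of 25 tested members (26 listed) was called higher and 13 lower, with a median log2 fold change of -1.20, and the summed level of the list was 10581 and 10511 TPM in -LIF-ESCs and 5123 and 5086 TPM in OSM-ESCs. Slc2a1 (Glut1), the main glucose transporter, was at 698 and 674 TPM without cytokine and 106 and 108 TPM with OSM, 6.42-fold lower (-2.67 ± 0.03; adjusted p = 1.35e-06 by limma). Lactate dehydrogenase A (Ldha) was at 1019 and 1008 TPM without cytokine and 346 and 343 TPM with OSM (-1.55 ± 0.03). Aldoc, an aldolase, was at 50.4 and 51.05 against 3.76 and 3.23 TPM (-3.53 ± 0.08). Ndufa4l2, a mitochondrial protein induced by hypoxia, was at 38.6 and 35.6 against 1.90 and 2.86 TPM (-3.51 ± 0.16). Hk2, a hexokinase, was at 108 and 105 against 79.02 and 78.5 TPM, lower in both libraries but not called (-0.43 ± 0.03). Against the list stood Vegfa, the angiogenic growth factor and a textbook hypoxia gene, named after its values were seen, at 15.3 and 14.2 TPM without cytokine and 71.98 and 69.3 TPM with OSM (2.19 ± 0.05).

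Promoters (RefSeq, GRCm38.p6, 250 bases before to 50 after the annotated start) are shown for 3 lower members. A short motif is marked that 15 of the list's 23 members with a promoter sequence hold. ACGTG, the core bound by hypoxia-inducible factors, stands in capitals on either strand.
Slc2a1, chr4:119108495-119108794, plus strand: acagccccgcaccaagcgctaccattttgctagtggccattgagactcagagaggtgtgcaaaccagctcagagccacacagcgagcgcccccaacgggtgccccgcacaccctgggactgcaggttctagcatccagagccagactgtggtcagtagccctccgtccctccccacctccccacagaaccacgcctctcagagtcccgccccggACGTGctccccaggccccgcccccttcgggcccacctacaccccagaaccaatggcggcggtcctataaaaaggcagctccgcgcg
Ldha, chr7:46845554-46845853, plus strand: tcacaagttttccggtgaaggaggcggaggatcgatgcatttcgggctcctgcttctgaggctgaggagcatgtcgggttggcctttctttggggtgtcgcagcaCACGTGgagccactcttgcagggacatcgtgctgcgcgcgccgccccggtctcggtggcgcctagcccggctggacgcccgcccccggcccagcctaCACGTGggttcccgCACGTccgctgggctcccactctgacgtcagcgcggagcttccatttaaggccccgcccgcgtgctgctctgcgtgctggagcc
Aldoc, chr11:78322823-78323122, plus strand: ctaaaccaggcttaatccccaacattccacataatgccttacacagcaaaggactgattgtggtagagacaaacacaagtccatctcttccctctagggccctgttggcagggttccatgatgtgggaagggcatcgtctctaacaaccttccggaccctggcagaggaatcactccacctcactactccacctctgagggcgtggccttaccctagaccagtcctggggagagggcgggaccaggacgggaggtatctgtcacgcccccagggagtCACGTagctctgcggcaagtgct
ACGTG on either strand lay in the promoters of 15 of the 23 members of the glycolysis and hypoxia list that had a promoter sequence (65.2%), of 3237 of the 11174 tested genes with one (28.97%) and of 19.6% of all 32851 promoter windows. Among genes called lower the share was 27.4%, and among genes called higher 26.1%. The motif is also the core of the E-box CACGTG, which 3 of the 23 members hold (13.0%) and 11.7% of tested genes; matches that overlap each other are in 1 run of capitals. The list was drawn up from genes known for glycolysis and the hypoxia response, so its share describes the list and not the effect of OSM. The motifs were searched after the expression values were known, and a match describes letters, not binding.

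Cholesterol and fatty acid synthesis was the list with the lowest median of the 41. Of its genes, 0 of 24 tested members were called higher and 17 lower, with a median log2 fold change of -1.66, and rescaling gave 0 higher and 20 lower. Hmgcs1, the HMG-CoA synthase of the pathway, was at 221 and 231 TPM without cytokine and 28.7 and 28.5 TPM with OSM, 7.90-fold lower (-2.94 ± 0.05; adjusted p = 2.99e-06 by limma). Sqle, squalene epoxidase, was at 55.3 and 54.6 against 21.6 and 20.9 TPM (-1.33 ± 0.04). Dhcr7, the last reductase, was at 42.03 and 40.1 against 5.496 and 4.85 TPM (-2.77 ± 0.08). The list summed to 2167 and 2189.8 TPM in -LIF-ESCs and 704 and 675 TPM in OSM-ESCs. The 9-letter sterol element TCACNCCAC was found in 1 of the 15 members with a promoter (6.67%) and in 1.49% of tested genes.

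**Figure D3:**
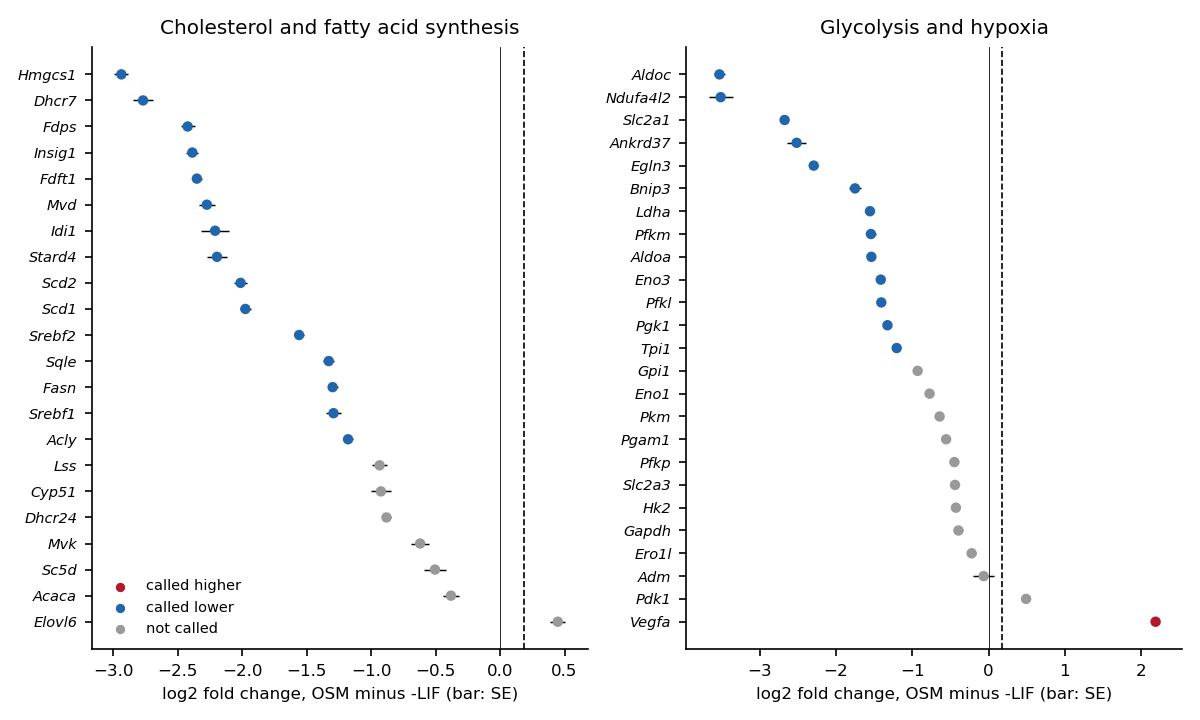
Log2 fold change (x axis, log2(TPM + 1), OSM minus -LIF; bars, SE of the limma fit) of 22 of the 24 tested genes of cholesterol and fatty acid synthesis (left) and of all 25 of glycolysis and hypoxia (right), with the median of all genes dashed. In the left panel 15 of the genes shown were called lower and none higher; in the right panel 13 were called lower and 1, Vegfa, higher.

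Of serine and one-carbon genes, 5 of 20 tested members were called higher, 1 lower and 14 not called, with a median log2 fold change of 0.40. The share called higher was 25.0%, against 14.2% of all genes. After rescaling 3 were higher and 1 lower, where 11.1% of all genes were called higher. Counts this small give no direction for the list. Mthfd2, a mitochondrial folate enzyme, was at 30.6 and 29.99 TPM without cytokine and 220.0 and 214 TPM with OSM (2.80 ± 0.03). Shmt2, the mitochondrial serine hydroxymethyltransferase, was at 85.1 and 81.5 against 246 and 237 TPM (1.53 ± 0.04). Aldh1l2, a mitochondrial dehydrogenase of formyl-tetrahydrofolate, was at 0.235 and 0.372 against 15.7 and 14.8 TPM (3.64 ± 0.09). The serine synthesis enzymes Phgdh (0.43) and Psat1 (0.65) were higher in both OSM libraries but not called. The last enzyme of serine synthesis, Psph (1.01), and the glycine cleavage gene Amt (1.07), named after their values were seen, were called and lost their calls after rescaling. Aldh1l1, the cytosolic counterpart of Aldh1l2 and the 1 member called lower, was named after its values were seen, at 4.24 and 3.47 against 1.29 and 0.931 TPM (-1.20 ± 0.15). Chac1, a glutathione-degrading enzyme induced by amino acid stress, was among the 10 highest named genes, at 3.99 and 4.86 TPM without cytokine and 285 and 278 TPM with OSM (5.71 ± 0.08).

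Other stress lists were mixed. Of p53 targets, 4 of 23 tested members were called higher and 3 lower, with a median log2 fold change of 0.53. Sesn2, which also responds to amino acid stress, was at 42.6 and 41.4 against 230.5 and 238 TPM (2.45 ± 0.04). Gdf15, a secreted stress cytokine, was at 2.62 and 2.73 against 15.9 and 18.7 TPM (2.31 ± 0.10). Gadd45a, a growth arrest gene, was at 48.97 and 46.7 against 219 and 201 TPM (2.11 ± 0.05). The cell cycle inhibitor Cdkn1a (p21), at 139.9 and 125 against 237 and 229 TPM, was not called (0.81), nor were Mdm2 (0.60) and Trp53inp1 (-0.25). The other p53 targets called were named after their values were seen: Tigar (1.27) was higher, and Btg2 (-1.68), Sesn1 (-1.27) and Ddit4 (-1.08), an mTOR inhibitor also induced by hypoxia, were lower. Of Nrf2 targets, 3 of 19 tested members (21 listed) were called higher and 1 lower, with a median log2 fold change of -0.23. Heme oxygenase Hmox1 was at 98.3 and 102 against 233 and 231 TPM (1.21 ± 0.03). Akr1b8, an aldo-keto reductase, was at 12.1 and 11.4 against 30.2 and 28.4 TPM (1.25 ± 0.07), and Nqo1 (-0.63) and Gclm (-0.42) were not called. Gsr, glutathione reductase, was called lower (-1.03) but not without OSM replicate 2 (-0.90). Gsta4, a glutathione transferase named after its values were seen, was called higher (1.001) and lost its call after rescaling (0.81). Of apoptosis genes, 2 of 15 tested members (18 listed) were called higher and 2 lower, with a median log2 fold change of 0.40, or 1 higher and 3 lower after rescaling. The BH3-only gene Hrk was at 0.591 and 0.284 against 24.04 and 22.1 TPM (4.07 ± 0.12). The other one called higher, the survival gene Mcl1 (1.12), was named after its values were seen and lost its call after rescaling. The pro-apoptotic genes Bok and Bik were called lower (-1.57 and -1.28), and Bcl2 (0.03), Bcl2l1 (0.40) and Bcl2l11 (-0.62) were not called.

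Interferon-stimulated genes divided in 2 directions. Of these, 14 of 25 tested members (26 listed) were called higher and 4 lower, with a median log2 fold change of 1.25; rescaling left the same counts. Ifit3, an antiviral protein, was at 4.76 and 6.71 TPM without cytokine and 156 and 138 TPM with OSM, 25.6-fold higher (4.47 ± 0.14; adjusted p = 1.19e-05 by limma). Usp18, which removes the ubiquitin-like protein Isg15, was at 5.82 and 6.47 TPM without cytokine and 127 and 122 TPM with OSM (4.13 ± 0.06). Ifit1 was at 4.29 and 5.66 against 86.3 and 83.6 TPM (3.86 ± 0.11). Isg15 was at 84.2 and 87.3 against 255 and 279 TPM (1.63 ± 0.05). Irf7, the factor that amplifies type I interferon, was named after its values were seen, at 1.94 and 1.88 against 36.1 and 35.5 TPM (3.66 ± 0.05). Ifi202b, a DNA-binding protein of the interferon-inducible p200 family and among the 10 highest named genes, was at 0.364 and 0.0633 against 55.995 and 53.5 TPM (5.53 ± 0.12). The 4 genes called lower, also named after their values were seen, were Irf1 at 91.2 and 92.2 against 10.2 and 11.1 TPM (-2.99 ± 0.05), the GTPases Gbp2 at 327 and 334 against 31.2 and 26.4 TPM (-3.48 ± 0.08) and Gbp3 at 63.9 and 63.5 against 26.4 and 22.4 TPM (-1.35 ± 0.08), and Ifitm1 at 176 and 182 against 47.4 and 49.2 TPM (-1.87 ± 0.04). Irf1 and the guanylate-binding proteins are best known as interferon-γ targets.

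The interferon-stimulated response element can be written as GAAA, any 2 bases, and GAAA again. It is shown in capitals, on either strand, in 3 promoters of genes called higher.
Ifit1, chr19:34640639-34640938, plus strand: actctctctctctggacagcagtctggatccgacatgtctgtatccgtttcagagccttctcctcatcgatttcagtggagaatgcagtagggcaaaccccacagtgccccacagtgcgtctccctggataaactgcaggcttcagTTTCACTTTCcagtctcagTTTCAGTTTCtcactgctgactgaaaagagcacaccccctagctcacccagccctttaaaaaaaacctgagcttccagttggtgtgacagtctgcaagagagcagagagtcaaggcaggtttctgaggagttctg
Ifit3, chr19:34583279-34583578, plus strand: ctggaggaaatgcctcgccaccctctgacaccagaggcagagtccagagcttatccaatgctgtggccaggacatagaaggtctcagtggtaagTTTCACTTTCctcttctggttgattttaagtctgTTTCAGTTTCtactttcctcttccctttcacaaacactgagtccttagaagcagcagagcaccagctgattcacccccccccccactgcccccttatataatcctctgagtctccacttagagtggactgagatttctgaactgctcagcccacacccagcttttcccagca
Isg15, chr4:156200769-156201068, minus strand: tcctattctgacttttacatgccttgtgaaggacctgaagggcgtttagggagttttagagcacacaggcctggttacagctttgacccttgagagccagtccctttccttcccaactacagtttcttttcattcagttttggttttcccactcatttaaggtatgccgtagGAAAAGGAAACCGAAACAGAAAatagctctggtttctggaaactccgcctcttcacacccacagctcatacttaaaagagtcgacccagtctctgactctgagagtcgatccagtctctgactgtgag
The element was present in 13 of the 20 members of the interferon list with a promoter sequence (65.0%), in 403 of 11174 tested genes (3.61%) and in 3.44% of all windows. Its share was 5.93% of genes called higher and 4.43% of genes called lower. In Isg15 the matches overlap and form 1 run of capitals. The list was drawn up from genes known to answer interferon, so the share describes the list and not the effect of OSM. The Stat element TTCCNGGAA lay in 3 of 16 Stat3 targets with a promoter (18.8%) and in 1.49% of tested genes, and in the set of interferon genes in 2 of 20 (10.0%). The looser Stat pattern TTCNNNGAA, which includes the former, lay in 4 of 16 Stat3 targets (25.0%) and 8.05% of tested genes. For 3 further motifs, the Esrrb element TCAAGGTCA was in 0.340% of tested promoters, the octamer core TTTGCAT in 4.30% and the amino acid response element TGATGNAA in 2.70%; among genes called higher the last was in 5.18%, and none of the 17 serine and one-carbon promoters held it.

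Antigen presentation was divided as well. Of its genes, 5 of 16 tested members were called higher and 6 lower, with a median log2 fold change of -0.33, with 3 higher and 6 lower after rescaling. The light chain β2-microglobulin (B2m) was at 175 and 181 TPM without cytokine and 765 and 723 TPM with OSM (2.06 ± 0.04). The heavy chain H2-D1 was at 58.5 and 57.3 against 124 and 129 TPM (1.12 ± 0.04; 0.93, no call after rescaling). The heavy chain H2-K1 was at 92.3 and 90.7 against 117 and 111 TPM (0.31 ± 0.04, not called). The other members called higher, named after their values were seen, were the class Ib genes H2-T23 (1.53) and H2-Q4 (1.05; 0.87, no call after rescaling) and Nlrc5 (1.09), the transactivator of class I genes. Class I genes resemble each other closely, and reads may be split between them. The immunoproteasome subunits had the opposite sign: Psmb10 was at 226 and 226 TPM without cytokine and 27.8 and 29.5 TPM with OSM (-2.93 ± 0.04). Psmb8 was at 77.2 and 70.6 against 10.02 and 10.1 TPM (-2.76 ± 0.10). Every OSM library was below every -LIF library for both subunits and above for B2m.

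Fibroblast and extracellular matrix genes had the highest median of the 41 lists. Of these, 29 of 36 tested members were called higher and 0 lower, with a median log2 fold change of 3.13, and rescaling left 29 higher and 0 lower. Of the 36, 12 were under 1 TPM in both -LIF libraries, and all 12 were called higher. The members named next include Lox, Tnc, Fbln2 and Mmp3, which are among the 10 highest named genes of the whole table. The list summed to 1186 and 1142 TPM in -LIF-ESCs and 4206 and 4159 TPM in OSM-ESCs. Lox, the collagen cross-linking enzyme, was at 0.0735 and 0.0894 TPM without cytokine and 155 and 149 TPM with OSM (7.14 ± 0.05; adjusted p = 3.33e-07 by limma). Tenascin C (Tnc), a matrix glycoprotein, was at 2.51 and 2.14 TPM without cytokine and 289 and 279.6 TPM with OSM (6.42 ± 0.06). Fbln2, a fibulin, was at 1.73 and 1.82 against 156 and 157 TPM (5.83 ± 0.04). Mmp3, a matrix metalloproteinase, had no read in -LIF-ESCs and 107 and 104 TPM in OSM-ESCs, at least 1198-fold higher against a limit of 3 reads over both -LIF libraries. Mgp, matrix Gla protein, is not in the list but is also among the 10 highest, and had no read in -LIF-ESCs and 65.1 and 68.2 TPM in OSM-ESCs, at least 502-fold higher. Col1a1, the chain of type I collagen, was at 25.02 and 22.8 against 134 and 138 TPM (2.46 ± 0.05). Col3a1 was at 0.477 and 0.449 against 22.98 and 21.5 TPM (3.99 ± 0.07). The surface protein Thy1 was at 7.96 and 5.78 against 63.8 and 64.1 TPM (3.06 ± 0.13). Acta2, smooth muscle actin, named after its values were seen, was at 31.05 and 30.3 against 368 and 381 TPM (3.57 ± 0.03). LIF-ESCs had Col1a1 at 86.4 and 88.6 TPM, between the other groups, and the 12 MEF markers summed to 382 to 386 TPM there.

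Chemokines and stromal cytokines were higher in the same libraries, and Ccl2 and Ccl7 belong to both lists. Of the chemokine list, 11 of 16 tested members (20 listed) were called higher and 1 lower, with a median log2 fold change of 2.03. Of the 16, 8 were under 1 TPM in both -LIF libraries, and all 8 were called higher. Ccl2, which attracts monocytes (chr11:82035571-82037453), was at 0.388 and 0.283 TPM without cytokine and 230.2 and 233 TPM with OSM (7.44 ± 0.05). Ccl7, its neighbour on chromosome 11, had no read in -LIF-ESCs and 219 and 212 TPM in OSM-ESCs, at least 1091-fold higher. Cxcl1, a neutrophil chemokine, was at 0.424 and 0.860 against 17.8 and 18.2 TPM (3.55 ± 0.14). Il6, the name giver of the cytokine family, was at 0 and 0 against 7.18 and 5.13 TPM, at least 93.2-fold higher. Cxcl12, a stromal chemokine, was at 2.24 and 2.26 against 4.504 and 4.67 TPM and was not called (0.78 ± 0.09). Cxcl16, the 1 member called lower and named after its values were seen, was at 25.8 and 27.995 against 7.21 and 6.44 TPM (-1.84 ± 0.10). Chemokines are also known targets of OSM in fibroblasts, and the data do not say which cells made these transcripts.

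Homeobox genes of the Hox clusters, which mark position along the body axis, were read at low levels in all groups. Of these, 19 of 26 tested members (39 listed) were called higher and 0 lower, with a median log2 fold change of 1.34. Of the 26, 25 were under 1 TPM in both -LIF libraries and passed the filter through the libraries with cytokine, which fixed their direction, so the count supports nothing by itself. The 13 that were not tested did not reach 1 TPM in 2 libraries. The 26 tested genes summed to 12.6 and 13.3 TPM in -LIF-ESCs and 82.7 and 82.02 TPM in OSM-ESCs. Hoxb9 was at 0.721 and 0.209 TPM without cytokine and 11.6 and 10.99 TPM with OSM (3.09 ± 0.19). Hoxc8 was at 0.156 and 0 against 5.17 and 4.98 TPM (2.50 ± 0.12). Hoxc10 was at 0.139 and 0.0563 against 5.19 and 4.02 TPM (2.34 ± 0.15). With a filter of 5 TPM the count of members called higher was 2. Hox genes are expressed in embryonic fibroblasts, and the part of MEFs was not tested.

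**Figure D4:**
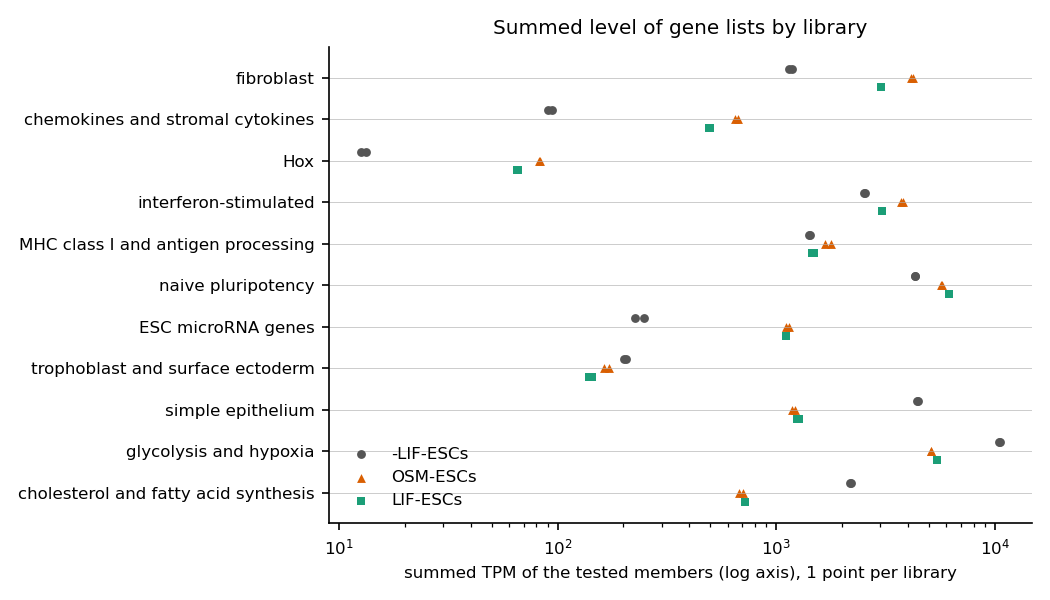
Summed TPM of the tested members of 11 gene lists in each library (log axis), with 1 point per library and 1 colour per group. The fibroblast sum was 1186 and 1142 TPM in -LIF-ESCs, 3004 and 3005 TPM in LIF-ESCs and 4206 and 4159 TPM in OSM-ESCs; simple epithelium, glycolysis and cholesterol sums were higher in -LIF-ESCs.

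Enzymes and regulators of DNA methylation were higher with OSM or not called: 7 of 17 tested members were called higher and 0 lower, with a median log2 fold change of 0.66. Dnmt3l, the catalytically inactive partner of the de novo methyltransferases, was at 37.01 and 37.3 TPM without cytokine and 334 and 325 TPM with OSM, 8.87-fold higher (3.11 ± 0.03; adjusted p = 9.19e-07 by limma). Tet1, a methylcytosine dioxygenase, was at 17.2 and 17.5 TPM without cytokine and 90.1 and 83.4 TPM with OSM (2.26 ± 0.05). The methyltransferases Dnmt1, Dnmt3a and Dnmt3b were not called. Of histone modifiers, 7 of 30 tested members (31 listed) were called higher and 0 lower, with a median log2 fold change of 0.34. The Polycomb subunit Eed was at 47.6 and 49.1 against 145 and 136 TPM (1.52 ± 0.04). Jarid2, which recruits that complex, was at 51.3 and 52.6 against 150.1 and 141 TPM (1.47 ± 0.04). Bmi1, of the other Polycomb complex, was at 2.38 and 2.14 against 15.2 and 13.01 TPM (2.21 ± 0.09). The demethylase Kdm4c was at 20.4 and 20.5 against 65.2 and 61.7 TPM (1.59 ± 0.04). Ezh2, the Polycomb methyltransferase, was not called (0.28).

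Imprinted genes, which are expressed from the chromosome of 1 parent, changed in both directions: 7 of 24 tested members (28 listed) were called higher and 6 lower, with a median log2 fold change of 0.21. H19, a maternally expressed noncoding RNA (chr7:142575529-142578143), was at 825 and 834 TPM without cytokine and 74.5 and 71.1 TPM with OSM, 11.4-fold lower (-3.49 ± 0.04; adjusted p = 9.81e-07 by limma). Peg10, a paternally expressed gene, was at 669.8 and 698 TPM without cytokine and 54.3 and 50.9 TPM with OSM (-3.68 ± 0.05). Grb10, an adaptor that inhibits growth factor receptors, was at 2.68 and 3.64 TPM without cytokine and 135 and 128 TPM with OSM (5.004 ± 0.11). Meg3, a maternally expressed noncoding RNA, was at 6.13 and 6.16 against 20.3 and 19.5 TPM (1.55 ± 0.05). Igf2 and H19, neighbours under 1 imprinting control region, had opposite signs.

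The study also concerned telomeres. Of telomerase and shelterin genes, 5 of 17 tested members were called higher and 1 lower, with a median log2 fold change of 0.10, and the number higher went to 2 after rescaling and 1 with trends on GC content and exon length removed. Tert, the catalytic subunit, was at 7.80 and 6.73 TPM without cytokine and 5.46 and 5.25 TPM with OSM and was not called (-0.38 ± 0.10). By quantitative PCR the study had significantly more Tert with OSM than without cytokine, the opposite direction. The same method gave no significant difference for the RNA subunit Terc. Telomerase activity by ELISA was greater with OSM, while the study's other activity assay (TRAP) showed no noticeable difference. The reason for the conflict over Tert was not tested. Terc, the RNA template, lacks a poly(A) tail, was listed at 0 in -LIF-ESCs and at 1.09 and 0.975 TPM in OSM-ESCs, and lost its call when any of the 4 libraries was left out (log2 fold change 0.98 to 1.06; 1.02 with all 4). Terf1 (Trf1), a shelterin subunit, was at 82.04 and 92.4 TPM without cytokine and 33.4 and 30.95 TPM with OSM (-1.41 ± 0.08). Rif1, a telomere and replication factor, was at 51.6 and 52.7 against 154 and 141 TPM (1.48 ± 0.05). The helicase Rtel1 was at 9.59 and 9.11 against 26.7 and 26.9 TPM (1.43 ± 0.05). The shelterin gene Pot1b (1.01) and the chromatin remodeller Atrx (1.04), named after their values were seen, were called and lost their calls after rescaling. Without OSM replicate 1 or 2, 3 members of the list were called higher.

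None of the 18 genes of the 2-cell stage in the table (of 23 listed) passed the filter. Their sum was 6.66 and 7.02 TPM in -LIF-ESCs and 1.05 and 0.932 TPM in OSM-ESCs, and no gene exceeded 0.299 TPM in OSM-ESCs. Zscan4c was at 0.466 and 0.378 TPM in -LIF-ESCs and 0.130 and 0 TPM in OSM-ESCs, on 12 and 8 reads against 3 and 0. Tcstv3 had 7 and 3 reads against 0 and 0, and Tcstv1 had 1 and 0 against 0 and 1, which gives no direction. The study's quantitative PCR had Zscan4, Tcstv1 and Tcstv3 much lower without cytokine, the opposite direction for Zscan4c and Tcstv3. By immunofluorescence and flow cytometry, the study found a proportion of Zscan4-positive cells in OSM-ESCs similar to that in LIF-ESCs. Of germline genes, 4 of 19 tested members (22 listed) were called higher and 5 lower, with a median log2 fold change of -0.35, or 2 higher and 6 lower after rescaling. Smc1b, a meiotic cohesin, was at 14.1 and 14.2 against 2.64 and 1.89 TPM (-2.22 ± 0.13). Dazl, a germ cell RNA-binding protein, was at 12.97 and 13.1 against 2.12 and 2.89 TPM (-2.01 ± 0.12). Mael, a piRNA pathway gene, was at 39.2 and 44.8 against 15.7 and 13.9 TPM (-1.45 ± 0.10). Dmc1, a meiotic recombinase, was higher at 5.33 and 4.37 against 16.1 and 16.2 TPM (1.56 ± 0.09), and Ddx4 (Vasa) was not called (0.13). The remaining called members, named after their values were seen, were Hormad1 (1.20), Taf7l (1.08) and Piwil2 (1.12), of which Taf7l and Piwil2 lost their calls after rescaling, and Tex101 (-1.42) and Stag3 (-1.19), which were lower. Of retinoid genes, 4 of 15 tested members (19 listed) were called higher and 3 lower, with a median log2 fold change of -0.07, or 1 higher and 3 lower after rescaling. Of the 15, 2 were under 1 TPM in both -LIF libraries and were called higher, and 1 was under 1 TPM in both OSM libraries and was called lower. The receptor Rarg was at 22.2 and 23.98 against 81.4 and 82.8 TPM (1.79 ± 0.05). The carrier Rbp4 and the dehydrogenase Rdh10 were lower (-1.59 and -1.20), and Crabp2 (-0.51) and Cyp26a1 (-0.82), targets of retinoic acid, were not called. Of those named after their values were seen, Dhrs3 (-1.20) was lower, and Crabp1 (1.10), Aldh1a1 (1.001) and Cyp26b1 (1.005) were higher and lost their calls after rescaling.

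Genes of DNA replication and mitosis had a median log2 fold change of 0.00234. Of these, 3 of 34 tested members were called higher and 1 lower. Rescaling gave 1 higher and 3 lower, with a median of -0.18, the lower ones being Aurkb and, named after their values were seen, Cdc6 and Ccnb2 (-0.86 and -0.82 on the TPM scale, not called there). The clamp Pcna was at 220.4 and 221 TPM without cytokine and 223 and 217 TPM with OSM (-0.01 ± 0.03). The helicase subunit Mcm2 was at 116 and 114 against 167 and 168 TPM (0.54 ± 0.03). Cyclin B1 (Ccnb1) was at 218 and 219 against 233 and 229 TPM (0.08 ± 0.03). None of the 3 was called. Aurkb, a mitotic kinase, was called lower at 91.5 and 94.4 against 31.99 and 29.9 TPM (-1.56 ± 0.05). Pola1, a polymerase subunit, was called higher at 14.5 and 15.6 against 42.8 and 38.01 TPM (1.36 ± 0.07). Kif11, a spindle motor, was at 71.2 and 74.5 against 172 and 154 TPM (1.15 ± 0.06) and lost its call after rescaling (0.97), as did the polymerase gene Pole (1.06), named after its values were seen. Of G1 regulators, 2 of 17 tested members were called higher and 0 lower, with a median log2 fold change of 0.50. Cyclin D2 (Ccnd2) was at 7.63 and 7.79 against 37.7 and 36.5 TPM (2.13 ± 0.05). The inhibitor Cdkn2b was at 4.69 and 7.10 against 22.4 and 20.8 TPM (1.73 ± 0.19), while cyclin D1 (Ccnd1, 0.66) and Cdkn2a (-0.17) were not called.

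In the Myc and oncofetal list, 6 of 15 tested members were called higher and 1 lower, with a median log2 fold change of 0.43. Mycn was at 78.9 and 80.5 TPM without cytokine and 283 and 281 TPM with OSM (1.81 ± 0.03). Hmga2, an architectural chromatin protein, was at 22.2 and 23.8 against 63.7 and 60.2 TPM (1.39 ± 0.05). Mxi1, an antagonist of Myc named after its values were seen, was the 1 member called lower, at 16.5 and 16.5 against 6.13 and 5.85 TPM (-1.32 ± 0.07). Of Hippo targets, 8 of 18 tested members were called higher and 0 lower, with a median log2 fold change of 0.52, or 6 higher and 1 lower after rescaling. Ctgf, a matricellular growth factor, was at 92.99 and 91.6 against 268 and 260.1 TPM (1.51 ± 0.03). Cav1, the caveolar coat protein, was at 1.44 and 1.03 against 29.3 and 27.6 TPM (3.73 ± 0.10). Axl, a receptor tyrosine kinase, was at 10.3 and 10.7 against 81.5 and 77.8 TPM (2.81 ± 0.05). Cyr61, a relative of Ctgf, was at 272 and 268 against 244 and 234 TPM (-0.17 ± 0.03, not called), although both are classic YAP targets. Ankrd1, also a target, was at 15.1 and 17.96 against 21.8 and 20.9 TPM (0.36, not called). Crim1, a transmembrane protein, was at 6.92 and 7.85 against 24.8 and 22.4 TPM (1.56 ± 0.08).

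Few ribosomal protein genes were called: 4 of 89 tested members were called higher and 6 lower, with a median log2 fold change of -0.10, and 67 of the 89 lay within 0.5 of 0. Several members far from 0 have near-identical copies in the genome, and their values are uncertain. Rpl29 was at 24.2 and 27.8 TPM without cytokine and 502 and 529 TPM with OSM (4.26 ± 0.07). Rpl34 was at 18.6 and 17.5 against 284 and 296 TPM (3.93 ± 0.05), while the copy Rpl34-ps1 was at 3631 and 3589 against 2020.2 and 2199 TPM (-0.78 ± 0.07). Rpl30, named after its values were seen, was at 68.5 and 71.3 against 297 and 274 TPM (2.01 ± 0.05). Rps3a1 was at 910.2 and 869.9 against 2178 and 2107 TPM (1.27 ± 0.04), and its copies Rps3a2 (-1.01) and Rps3a3 (-1.07) had the opposite sign; the Rps3a2 call was lost without OSM replicate 1 or -LIF replicate 1 (-0.997 and -0.989). These copies were named after their values were seen, and how reads were shared between copies was not tested. Rpl39l, an Rpl39 paralog, was at 39.8 and 44.4 against 7.86 and 5.46 TPM (-2.51 ± 0.17).

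Of the 37 mitochondrially encoded genes, 1 was called higher and 10 lower (median -0.46), and all 11 are tRNA genes, which are short and read at few positions. The 1 higher, mt-Te, named after its values were seen, was at 2080.1 and 2386 against 4840.1 and 4479.6 TPM (1.06 ± 0.07; 0.88, no call after rescaling). Of the lower ones, mt-Tq was at 36.1 and 54.5 against 12.5 and 15.1 TPM (-1.62 ± 0.25). The gene mt-Tv was at 11.5 and 14.02 against 0 and 2.39 TPM (-2.90 ± 0.65) and lost its call without -LIF replicate 2 (-2.77). The gene mt-Tr was at 33.8 and 15.8 against 1.46 and 4.85 TPM (-2.67 ± 0.81), which lost its call without OSM replicate 1 (-2.05) or either -LIF replicate (-2.15 and -3.20). Among clustered histone genes, 7 of 56 tested members (70 listed) were called higher and 7 lower, with a median log2 fold change of -0.16. Hist1h2bc was at 9.86 and 7.81 against 50.01 and 47.7 TPM (2.35 ± 0.11). Hist1h1c, a linker histone, was at 13.98 and 14.2 against 56.03 and 61.8 TPM (1.99 ± 0.06). Hist1h4h was at 2.26 and 3.89 against 15.2 and 20.3 TPM (2.22 ± 0.23). The number of histone genes called lower was 13 after rescaling, 2 without -LIF replicate 1 and 4 without OSM replicate 2. Among the 10 lowest named genes were 3 of U3 small nucleolar RNA: Rnu3b1 at 48.7 and 40.3 against 0 and 0 TPM, Rnu3b3 at 46.6 and 37.8 against 0 and 0.382 TPM (-5.19 ± 0.19) and Rnu3a at 28.1 and 39.7 against 0 and 0.385 TPM (-4.87 ± 0.23). They are near-identical, lack a poly(A) tail and cannot be counted apart.

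The shift of the median gene was not the same for all genes. Among protein-coding genes, the median log2 fold change went from 0.0059 in the decile with the shortest exon length (median 1126 bases) to 0.32 in the decile with the longest (12021 bases). It went from 0.33 in the decile with the lowest GC content (median 40.7%) to 0.090 in the decile with the highest (59.9%). Genes called lower made up 14.3% of the shortest decile and 3.35% of the longest, whereas genes called higher made up 13.5% and 15.5%. OSM against LIF, in the same libraries of OSM-ESCs, gave medians between -0.029 and 0.041 in all deciles. Removing both trends from each library, an alternative chosen after seeing them, gave a median of -0.0021 with 1912 genes higher and 1893 lower. The cause of the trends was not tested.

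**Figure D5:**
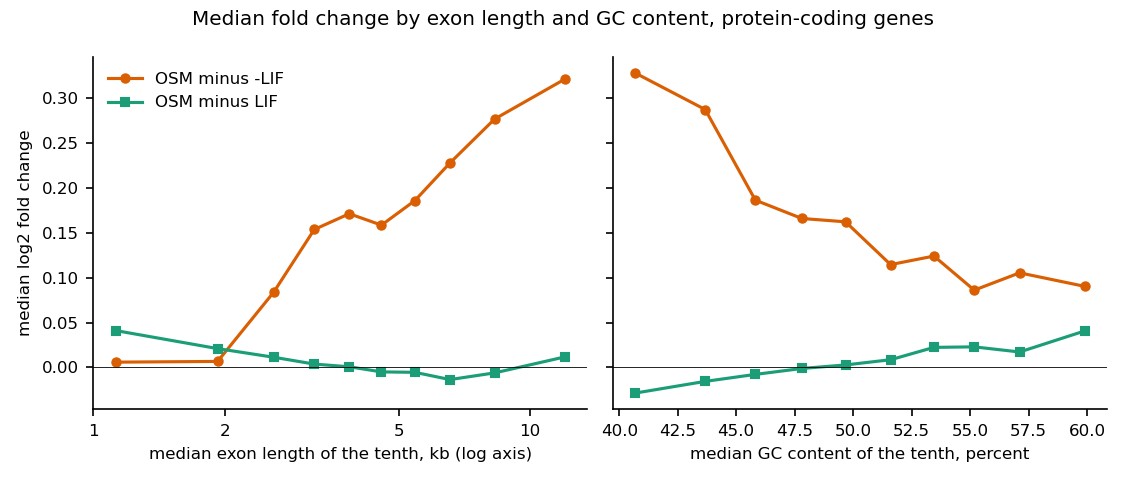
Median log2 fold change of protein-coding genes in deciles by exon length (left, kilobases, log axis) and by GC content (right, percent), for OSM minus -LIF and OSM minus LIF. The OSM minus -LIF median went from 0.0059 to 0.32 from the shortest to the longest decile, and was 0.33 in the decile of lowest GC content.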

How the data were processed

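Poly(A) RNA of 6 mESC libraries was sequenced, 2 per group. Per the submitters' processing notes and the study's methods, the authors trimmed reads with Trimmomatic, aligned them to mm10 with HISAT2 and counted them per gene with featureCounts; versions, annotation and strand setting are not given in the sources used here. The authors deposited 1 table of TPM values, 1 column per library, for 28584 gene symbols, with no counts. No column of another sample was present.

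Groups came from the labels. Values were taken as log2(TPM + 1), and genes with 1 TPM or more in 2 or more libraries were fitted with limma (version 3.58.1 in R 4.3.3; empirical Bayes with trend), all 6 libraries sharing 1 estimate of the spread, contrast OSM minus -LIF. The residual degrees of freedom were 3, or 5.3 with the prior. For a call, the Benjamini-Hochberg adjusted p had to be under 0.05 and the fitted log2 difference at least 1 in size. The LIF libraries count toward the filter and the spread, and the contrast OSM minus LIF was taken from the same fit for the closing section. The fit was tested on simulated data. Figures used matplotlib 3.10.9 in Python 3.11.15.

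Symbols were matched to GENCODE M21 (GRCm38), where 28404 (99.4%) were found once, for coordinates, gene type and exon length. TPM divided by a constant per library and multiplied by exon length gave whole reads, within 0.02 of a read, for 95.6% of matched values, which yields the depth quoted. Because every library has the same TPM sum, abundant genes that rise pull down the values of the rest. Precision at low levels is limited by counting: in such recovered reads, replicates differed beyond counting noise (mean chi-square per gene 1.97 to 3.40), so all 6 counted as separate libraries. A bound on a fold change used 3 reads over both libraries of a group.

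The members of the comparison and the gene lists were chosen with earlier results of these data known. Genes named were the 10 highest and 10 lowest fold changes among called genes of non-overlapping libraries with at least 5 TPM in every library of the higher group (models known by a clone or Gm number, microRNAs and pseudogenes left out), and of each list its lead genes and up to 3 called members of largest fold change. All others are said to be named after their values were seen; these include remaining members of counts of 5 or fewer. A few genes that the rule or a count would name are not reported here. The small RNA models in the closing section are also of that kind. Alternatives were another pseudocount (0.1), other filters, another prior, other scalings, voom on recovered reads and a replicate block. Each OSM and -LIF library was also left out in turn, with the filter kept from all 6 libraries. The LIF libraries were not left out singly.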

Additional observations from a re-analysis of the deposited data

Results flagged for a closer look

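The fit also gave the difference between the OSM and the LIF response, which share the -LIF libraries, as OSM-ESCs minus LIF-ESCs. Of 18556 tested genes, 110 (0.593%) differed at an adjusted p under 0.05 (limma, Benjamini-Hochberg), and 21 of the 257 named genes were among them, each with an adjusted p between 0.024 and 0.049. No explanation of these differences was tested.

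Of the named matrix and chemokine genes, 6 were higher with OSM than with LIF at this threshold. The log2 difference was 0.40 for Ccl7, 0.44 for Lox, 0.54 for Tnc, 0.43 for Fbln2, 0.63 for Col1a1 and 0.73 for Acta2. Others did not pass, with adjusted p by limma of 0.060 for Ccl2, 0.054 for Mgp, 0.095 for Col3a1, 0.20 for Mmp3, 0.23 for Cxcl1 and 0.58 for Il6. The MEF markers were also higher in OSM-ESCs (531 to 539 TPM in sum) than in LIF-ESCs (382 to 386 TPM), and their part in these differences was not tested. The YAP target genes Ctgf and Cyr61 differed by 0.42 and 0.36.

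Of the named genes of the interferon response and antigen presentation, 4 were higher with OSM, by 0.52 for Isg15, 0.62 for Usp18, 0.38 for H2-D1 and 0.34 for B2m. Ifit1 (adjusted p = 0.174 by limma), Ifit3 (0.316), Ifi202b (0.161), H2-K1 (0.0699), Psmb8 (0.151) and Psmb10 (0.107) did not pass. Nes differed by 0.41, Ccnd2 by 0.50 and Akr1b8 by 0.58.

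The remaining 6 genes were lower with OSM than with LIF. They were the feedback inhibitor Socs3 at -0.57, the naive factor Nr0b1 at -0.28, the glucose transporter Slc2a1 at -0.47, Ndufa4l2 at -1.73, Rhox5 at -0.41 and Ddit4 at -0.31.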

How the results depend on the processing

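Calls numbered 2481 to 2653 higher and 1432 to 1476 lower with each OSM or -LIF library left out in turn. On adjusted p alone they numbered 7958 and 4722, with voom on recovered reads 2677 and 2176, and with a pseudocount of 0.1, 3317 and 1875. The median log2 fold change of all genes was 0.206 with that pseudocount, 0.0629 with no filter, 0.210 with a filter of 5 TPM, 0.0199 after rescaling, 0.0765 with voom and -0.00210 with trends on GC content and exon length removed. Groups share replicate numbers, and deviations of same-numbered libraries correlated at -0.023, 0.027 and -0.043 between the 3 pairs of groups. With 2 libraries per group, these values cannot tell whether same-numbered libraries were made together. The replicate block gave 2640 higher and 1457 lower and changed no call among 257 named genes. Neither did the fit of the 2 groups alone, the prior without trend or dropping the filter. Rescaling ended 23 of their calls, the trend removal 24 of 252, voom 12 of 228, and leaving out 1 library 6 to 10. Reversed signs concerned 7 genes that were not called. After rescaling Sox17 was at -0.000881, Nodal at -0.139, Ddx4 at -0.0522, Ccnb1 at -0.106 and Bcl2 at -0.0740. With voom Nodal was at -0.0756, Ccnb1 at -0.0394 and Bcl2 at -0.0632. With trends removed Sox17 was at -0.0874, Ddx4 at -0.148, Ezh2 at -0.00578, Ccnb1 at -0.215 and Bcl2 at -0.253. With 1 library left out, Sox17 ran from -0.0200 to 0.121, Ddx4 from -0.0145 to 0.267, Pcna from -0.0280 to 0.0139 and Bcl2 from -0.0439 to 0.109. List counts of 5 or more that moved by more than 1.5 times and are not given above were gp130 genes higher (5 to 3, trends removed), trophoblast genes lower (10 to 6) and Notch genes lower (5 to 3), both with the 5 TPM filter, antigen presentation genes lower (6 to 3, voom) and histone genes lower (7 to 16, voom). The causes were not tested. With 2 libraries per group, the spread rests on few differences.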

Other observations

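Of the TPM lost by genes with a lower mean in OSM-ESCs, 28.8% lay in 10 genes, small RNA models among them. Gm23419 was at 23320 and 21324 TPM in -LIF-ESCs and 7053 and 7415 TPM in OSM-ESCs, and Gm27483 went from 5853 and 5535 TPM to 517 and 497 TPM. Gm23935 was at 18514 and 19070 TPM without cytokine, and the OSM libraries differed from each other, at 5864 and 19327 TPM. Mir675, a microRNA that lies inside H19, was at 2729 and 2676 TPM in -LIF-ESCs and 249 and 274 TPM in OSM-ESCs.

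By gene type, the median log2 fold change was 0.17 for protein-coding genes, 0.43 for lincRNA genes, 0.52 for microRNA models and -0.12 for processed pseudogenes. Of the 18 genes of the 2-cell stage in the table, 16 had a higher mean in -LIF-ESCs, all of them at levels below the filter.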
